A study of Rattus norvegicus with 24 samples.

Results

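The genes described here are 10 clock and clock-output genes of the liver: Per1, Per2, Per3, Cry1, Nr1d1, Nr1d2, Dbp, Tef, Hlf and Nfil3. They were chosen by name, with earlier results of these data known. A gene was measured where a probe set of the array carried its symbol alone. That held for 8 of the 10, with 1 probe set each, out of 18197 probe sets with a single symbol and 20917 in all. The 8 probe sets passed the filter on dim signal that left 15687 probe sets for testing. The probe sets for Nr1d1 are shared with Thra and none was found for Nr1d2 alone, so these genes are not analysed here.

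RNA came from livers of 24 Sprague-Dawley females, the F2 generation, with an array for each. GpatCD-CD (n = 7) and GpatCD-HF (n = 6) descended from F0 grandfathers on chow, and GpatHF-CD (n = 6) and GpatHF-HF (n = 5) from F0 grandfathers on a high-fat diet (HFD). The part of each name after the hyphen is the female's own food, chow or an HFD with 42 or 45% of its energy as fat, eaten for 12 weeks. The lines are named below after the grandfather's diet. All groups shared the strain and sex, and were housed with 12 h of light and 12 h of darkness. The age at collection, the time of day at collection, litters and parents are not given in the labels, so p-values measure the spread between these samples and relatives would make them too small.

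The tissue label was checked because a protocol in the labels speaks of gonadal fat. Alb stood at percentile 100 and Cps1 at 99.9 of all mean signals, whereas Adipoq, the adipocyte hormone, stood at 34.2 and Plin1, which coats fat droplets, at 38.5. The summed intensity of 4 adipocyte genes was 217 to 376 per array, against 45522 to 57695 for 6 hepatocyte genes. Any 2 arrays correlated at 0.963 to 0.991 over log2 signals. Arrays 21 and 25 (GpatCD-CD), 22 (GpatCD-HF) and 24 (GpatHF-HF) stood apart on principal component 2, and results that rest on them are given with and without them. Of the 32 clock values on these 4 arrays, 19 lay inside the range of the other arrays of the same group. The same count was not made for the other arrays.

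The circadian clock is a daily feedback loop of transcription. BMAL1 pairs with CLOCK or NPAS2 and activates Per and Cry genes through E-boxes, and the PER and CRY proteins return to silence that activation. The nuclear receptors REV-ERB (Nr1d1, Nr1d2) and ROR compete over the Bmal1 gene. DBP, TEF and HLF, the PAR-bZIP factors, activate genes with D-boxes, while NFIL3 represses the same sites. In livers of rodents kept in light and dark, Bmal1, Clock and Npas2 are known to peak around the end of the night, Dbp, Tef, Hlf and the Per genes from the later day to dusk, and Nfil3 and Cry1 in the night. Food intake times can set the liver clock.

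The sequences below, 250 bases before to 50 after a start site, are shown because they hold letters of the elements of that loop in genes measured here. They come from RefSeq, build GRCr8, whose table held promoters of 8 of the 10 genes. The letters searched on both strands were CACGTG (E-box), CACGTT (E-prime box), TTATGTAA (D-box) and AGGTCA (core of a ROR element), and matches are in capitals. Per2 lies on the minus strand of chromosome 9, at chr9:99496944-99497243, and Tef on the plus strand at chr7:115206577-115206876. Bmal1 lies on the plus strand at chr1:176766078-176766377.
Per2: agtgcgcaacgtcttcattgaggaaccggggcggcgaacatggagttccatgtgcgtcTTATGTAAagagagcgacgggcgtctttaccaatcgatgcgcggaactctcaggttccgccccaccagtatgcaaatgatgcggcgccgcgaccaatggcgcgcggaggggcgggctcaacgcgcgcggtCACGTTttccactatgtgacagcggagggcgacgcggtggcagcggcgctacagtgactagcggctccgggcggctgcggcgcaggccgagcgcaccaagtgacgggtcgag
Tef: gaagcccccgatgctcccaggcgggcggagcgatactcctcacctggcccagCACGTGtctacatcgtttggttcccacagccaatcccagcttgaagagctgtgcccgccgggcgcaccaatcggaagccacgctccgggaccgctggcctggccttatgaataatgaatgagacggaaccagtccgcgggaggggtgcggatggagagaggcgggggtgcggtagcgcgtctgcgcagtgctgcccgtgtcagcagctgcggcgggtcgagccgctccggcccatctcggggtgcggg
Bmal1: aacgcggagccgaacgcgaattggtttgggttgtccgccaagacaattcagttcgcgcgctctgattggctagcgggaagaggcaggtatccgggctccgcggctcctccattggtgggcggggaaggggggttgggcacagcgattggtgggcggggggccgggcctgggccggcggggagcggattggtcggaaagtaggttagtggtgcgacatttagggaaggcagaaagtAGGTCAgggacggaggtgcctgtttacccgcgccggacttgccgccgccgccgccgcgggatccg
The Per2 window held a D-box 192 bases and an E-prime box 62 bases before the start. The Tef window held an E-box 198 bases before the start, and that of Bmal1 a ROR element core 15 bases before it. None of these matches overlapped. The windows of Per1, Per3, Dbp and Nfil3, 4 of the 6 measured genes with a promoter in the table, held none of the 4 motifs. Of 33469 promoters of that length, 6.42% held the E-box letters, 4.83% the E-prime box, 0.893% the D-box and 16.2% the ROR element core. An E-prime box together with a D-box, as in Per2, occurred in 11 promoters (0.0329%). No other pair was counted, and the share that unrelated motifs would give together was not computed. A match of letters is a description and no binding was measured here.

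Levels are log2(intensity + 16), with the intensity as deposited, and differences on that scale understate the change of dim genes. Own diet, HFD minus chow, was compared in each line and as the average of both lines. In that average 3 of the 8 genes passed an adjusted p of 0.05 in limma (Benjamini-Hochberg over 15687 probe sets), against 1.99% of all probe sets. Per2 and Hlf rose, which 0.363% of all probe sets did, and Nfil3 fell, which 1.63% did. The median difference over the 8 genes was 0.52, against -0.03 over all probe sets tested. As the genes were chosen with earlier results of these data known, counts set against all probe sets, here and below, are not an independent test of the list.

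Per2 encodes a repressor of BMAL1 and CLOCK. In GpatCD-CD the 7 arrays gave log2 signals of 6.96 to 7.86, with a median of 7.16. On the HFD in the same line the signals were 7.53 to 8.56 with a median of 8.03 (n = 6). Most HFD arrays lay above the chow arrays, and the groups overlapped through chow array 30 at 7.86. In the HFD line the chow signals were 6.75 to 8.14 with a median of 7.43 (n = 6). The 5 arrays of GpatHF-HF read 8.19, 9.55, 8.17, 7.40 and 9.51, so that 4 of 5 were above every chow array of their line. Per2 rose by 0.99 ± 0.20 (SE) in the average of the lines, a 1.98-fold change (limma adjusted p = 0.00734). The differences within the lines were 0.84 ± 0.28 (adjusted p = 0.314) and 1.13 ± 0.30 (adjusted p = 0.0692), and neither passed.

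Per1 and Per3 are the other Period genes. Per1 had group means of 8.36 ± 0.46 (SD, n = 7) in GpatCD-CD, 8.63 ± 0.37 (n = 6) in GpatCD-HF, 8.33 ± 0.51 (n = 6) in GpatHF-CD and 8.84 ± 0.44 (n = 5) in GpatHF-HF. Its own-diet difference in the average was 0.39 ± 0.17 (adjusted p = 0.283) and did not pass. Per3 ranged more widely, with 7.71 ± 0.75 in GpatCD-CD, 8.68 ± 0.62 in GpatCD-HF, 8.31 ± 1.25 in GpatHF-CD and 9.06 ± 1.14 in GpatHF-HF. The 2 diets overlapped in both lines. The Per3 difference of 0.86 ± 0.35 was close to that of Per2 in size, with a larger error (adjusted p = 0.251).

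Cry1, a cryptochrome repressor, had the smallest difference of the 8 genes for own diet and for grandpaternal diet, each in the average. Its means were 7.28 ± 0.23, 7.15 ± 0.22, 7.20 ± 0.35 and 7.18 ± 0.39 in the order GpatCD-CD, GpatCD-HF, GpatHF-CD and GpatHF-HF. The own-diet difference in the average was -0.08 ± 0.11 (limma adjusted p = 0.815). The values of all 4 groups overlapped.

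**Figure D1:**
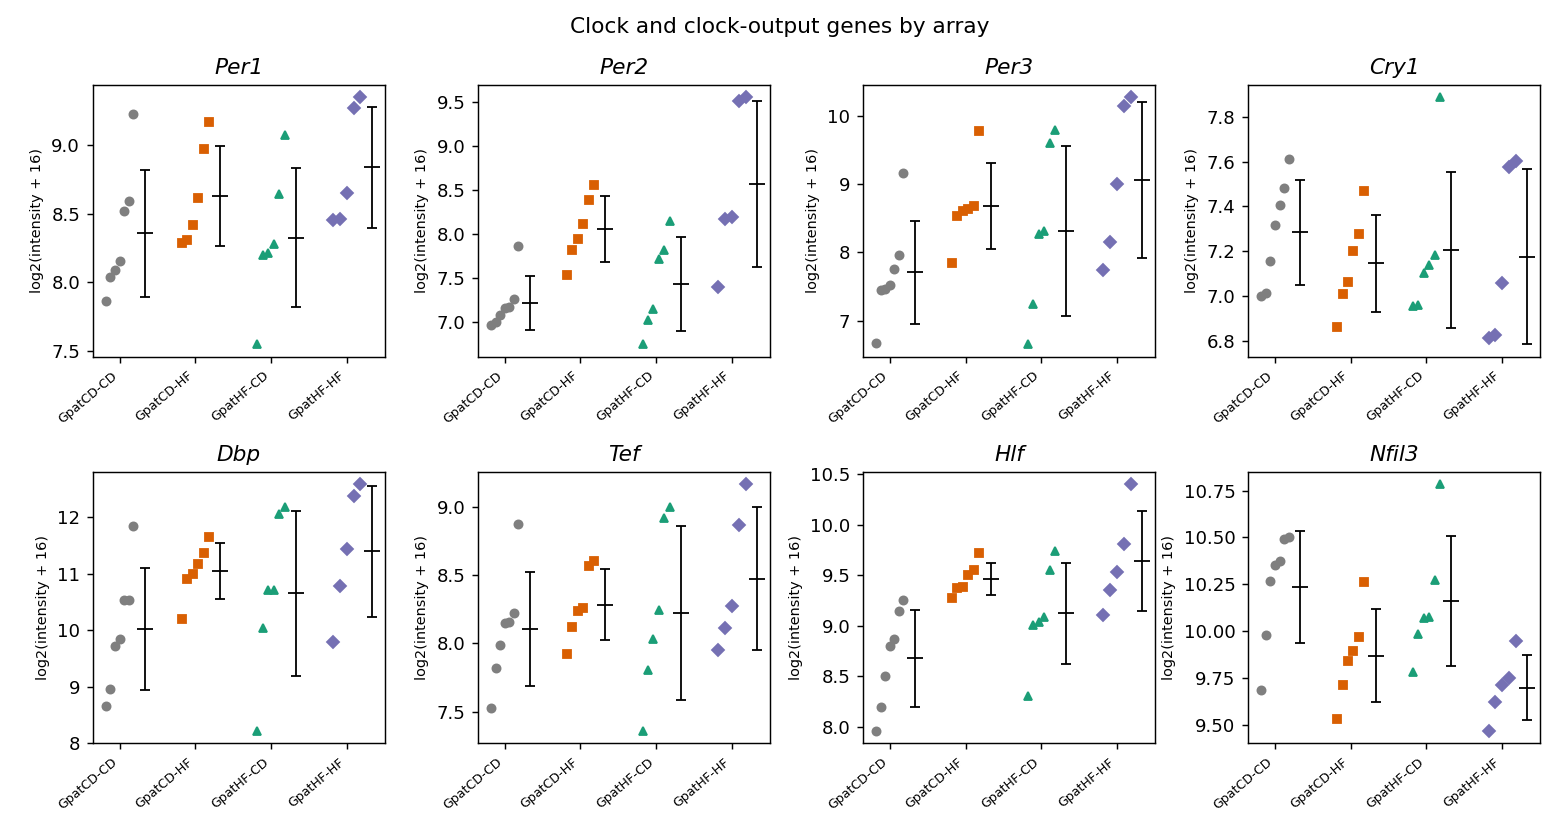
Log2 signal, log2(intensity + 16), of the 8 measured clock and clock-output genes in the 4 groups, 1 point per array, sorted by value within a group; the bar beside the points is the group mean ± SD (n = 7, 6, 6 and 5). Per2 and Hlf sit higher and Nfil3 lower on the HFD in either line, while Dbp and Per3 spread most within groups.

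Hlf is a D-box activator. Its 6 arrays in GpatCD-HF read 9.27 to 9.72, with a median of 9.44, and the 7 of GpatCD-CD read 7.96 to 9.26, with a median of 8.80. These groups did not overlap, by a margin of 9.27 against 9.26. Hlf was the only one of the 8 genes without overlap in the chow line, where 0.140% of all probe sets were higher and 0.198% lower on the HFD without overlap. In the HFD line Hlf read 8.31 to 9.74 on chow and 9.11, 10.40, 9.53, 9.35 and 9.81 on the HFD, so the groups overlapped there. For none of the 8 genes were the HFD-line groups free of overlap, against 0.331% of all probe sets higher and 2.71% lower. Hlf rose by 0.66 ± 0.16 in the average (1.57-fold, limma adjusted p = 0.0292). Leaving out array 27, 33, 37, 42 or 44 alone ended that call, with adjusted p up to 0.0655.

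Dbp, a strongly cycling transcript of rodent liver, had the widest range of the 8 genes. Its signals ran from 8.21 to 12.59 over the 24 arrays, a 20.8-fold span. Within GpatHF-CD the 6 arrays read 8.21, 12.18, 10.71, 10.72, 12.05 and 10.04, a 15.6-fold span among females of the same line and diet. The group means were 10.02 ± 1.08 in GpatCD-CD, 11.05 ± 0.50 in GpatCD-HF, 10.65 ± 1.46 in GpatHF-CD and 11.40 ± 1.16 in GpatHF-HF. The difference of 0.89 ± 0.40 in the average did not pass (limma adjusted p = 0.319). Tef had means of 8.11 ± 0.42, 8.29 ± 0.26, 8.23 ± 0.64 and 8.48 ± 0.52 in the same order, and its difference was 0.21 ± 0.18 (adjusted p = 0.656). Without arrays 21, 22, 24 and 25 the Tef difference in the chow line was -0.06.

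Nfil3 encodes the repressor that shares the D-box with these activators. GpatCD-CD read 9.68 to 10.50 with a median of 10.35, and GpatCD-HF 9.53 to 10.26 with a median of 9.87. In the HFD line chow arrays read 9.78 to 10.79 with a median of 10.07, and the HFD arrays 9.47, 9.71, 9.62, 9.94 and 9.75. HFD arrays were lower in both lines, with overlap in each. Nfil3 fell by 0.42 on the log2 scale in the average (SE 0.11, 1.33-fold lower, limma adjusted p = 0.0403). That call was the least stable of the 3: the adjusted p was 0.102 without arrays 21, 22, 24 and 25, and it missed 0.05 in 17 of the 24 fits that left out 1 array. Among those 24 fits it was kept where array 21, 30, 32, 39, 41, 46 or 47 was the one left out. It was also kept after quantile normalization (adjusted p = 0.0126), after centring each array (0.0150) and with the 4 arrays as a block (0.0368).

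The 3 genes that passed took the same order of group means, or its reverse. Per2 went from 7.21 ± 0.30 (SD) in GpatCD-CD through 7.43 ± 0.54 in GpatHF-CD and 8.06 ± 0.38 in GpatCD-HF to 8.56 ± 0.94 in GpatHF-HF. Hlf went from 8.68 ± 0.48 through 9.12 ± 0.50 and 9.47 ± 0.16 to 9.64 ± 0.50 in that order. Nfil3 went down along it, from 10.24 ± 0.30 through 10.16 ± 0.34 and 9.87 ± 0.25 to 9.70 ± 0.18. Arrays of neighbouring groups in this order overlapped for each of the 3 genes. Per3, Dbp and Tef, which did not pass, had group means in this order as well. As the 3 genes were those called for own diet, the distance of chow from HFD groups was largely given by that choice. The remaining steps are by grandpaternal diet, for which no gene passed.

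No gene of the 8 passed within a single line, where 0.319% of probe sets passed in the chow line and 0.752% in the HFD line (limma). Without array 41 or without array 46, Per2 passed in the HFD line. At an unadjusted p under 0.05 there were 4 of 8 in the chow line and 4 of 8 in the HFD line, against 8.80% and 15.8% of all probe sets. The interaction, which tests whether the own-diet difference depended on the line, was 0.29 ± 0.41 for Per2, -0.27 ± 0.32 for Hlf and -0.09 ± 0.22 for Nfil3. None of the 8 genes passed it, and none was under 0.05 unadjusted, against 0% and 9.71% of all probe sets.

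Grandpaternal diet, HFD line minus chow line, was compared on chow, on the HFD and in the average. None of the 8 genes passed in limma in any of the 3, and neither did any other probe set (0%). Unadjusted, none of the 8 was under 0.05 either, while 9.15%, 11.0% and 11.0% of all probe sets were. In the average the difference was 0.36 ± 0.20 for Per2 (adjusted p = 0.528), 0.31 ± 0.16 for Hlf (adjusted p = 0.486), 0.49 ± 0.35 for Per3 and 0.49 ± 0.40 for Dbp. Per1 at 0.09, Tef at 0.15, Cry1 at -0.03 and Nfil3 at -0.12 were nearer to 0. The median over the 8 genes was 0.23, against -0.05 over all probe sets tested.

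Bmal1, Clock and Npas2, the activators, are the counterpart against which the chosen genes are usually read. Bmal1 had means of 9.09 ± 0.72 in GpatCD-CD, 8.68 ± 0.51 in GpatCD-HF, 8.61 ± 1.03 in GpatHF-CD and 7.80 ± 1.31 in GpatHF-HF. In GpatHF-HF the 5 arrays read 8.33, 6.09, 8.57, 9.24 and 6.79, so 2 females of that group were far below the other 3. The own-diet difference of Bmal1 in the average was -0.61 ± 0.33 (limma adjusted p = 0.444) and the grandpaternal one -0.68 ± 0.33 (adjusted p = 0.453). Clock differed by -0.15 ± 0.11 and -0.25 ± 0.11, and Npas2 by -0.13 ± 0.23 and -0.54 ± 0.23, for own and grandpaternal diet in that order. None of these passed, and the Npas2 own-diet value was 0.05 without array 44. For grandpaternal diet in the average, Bmal1, Clock and Npas2 were under 0.05 unadjusted in limma (adjusted p = 0.453, 0.411 and 0.387). They were the only ones of the 12 tested core clock genes to be so, against 11.0% of all probe sets. Bmal1 was just under that limit (limma unadjusted p = 0.0496). Within groups Clock and Npas2 ran with Bmal1 (r = 0.85 and 0.91), so the 3 are not independent of each other. Cry2, the other cryptochrome, differed by 0.07 ± 0.13 and 0.09 ± 0.13.

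**Figure D2:**
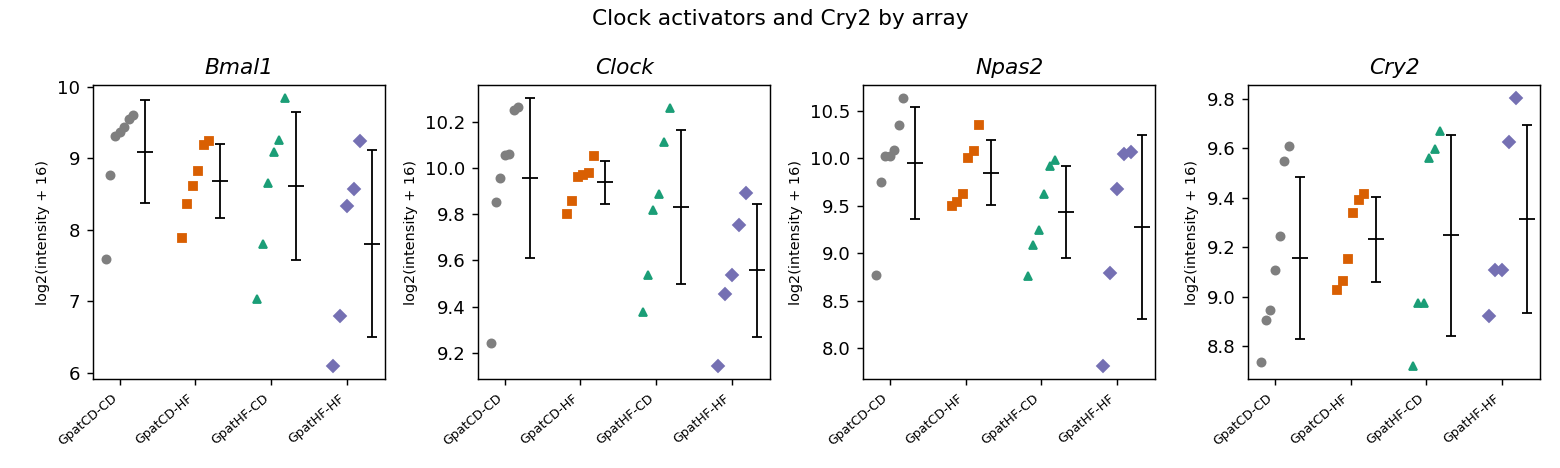
Log2 signal, log2(intensity + 16), of the activators Bmal1, Clock and Npas2 and of the cryptochrome Cry2 in the 4 groups, 1 point per array, with the group mean ± SD beside the points (n = 7, 6, 6 and 5). Bmal1 runs from 6.09 to 9.84, and its lowest values are 2 arrays of GpatHF-HF.

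Arranged by the part of the day in which they are known to be high, the genes placed in a class split by sign. Other core clock genes, among them Cry2 and the repressor Bhlhe41, were not placed. In the averages for own and grandpaternal diet, Cry2 was at 0.07 and 0.09 and Bhlhe41 at 0.04 and -0.16. For own diet in the average, 6 of 6 genes of late day and dusk (Per1, Per2, Per3, Dbp, Tef, Hlf) were above 0, from 0.21 to 0.99. The 5 genes of night and dawn (Bmal1, Clock, Npas2, Nfil3, Cry1) were all below 0, from -0.61 to -0.08. For grandpaternal diet in the average the late-day genes again had 6 of 6 above 0, from 0.09 to 0.49, and the night genes 5 of 5 below 0, from -0.68 to -0.03, of which Cry1 turned to 0.04 after centring each array. Over all probe sets tested, 5655 of 15687 were above 0 for own diet and 4055 for grandpaternal diet. These genes vary together from rat to rat, as shown next, so the signs are not independent of each other. Both averages use the same 24 arrays.

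The sizes differed between the averages where the signs did not. Bmal1 was lower by a like amount in each (-0.61 and -0.68), while Per2 stood at 0.99 for own diet and 0.36 for grandpaternal diet, Hlf at 0.66 and 0.31, and Nfil3 at -0.42 and -0.12. Npas2 went the other way, at -0.13 and -0.54. Whether the averages differ from each other was not tested.

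The clock genes were among the most variable transcripts between females of the same group. The SD within groups was 1.10 for Dbp, and 0.140% of the tested probe sets had a larger one. It was 0.958 for Per3 (0.280% larger), 0.558 for Per2 (1.66%), 0.475 for Tef (2.70%), 0.448 for Per1 (3.23%) and 0.433 for Hlf (3.55%), against a median of 0.192 over all probe sets. Cry1 at 0.298 (11.5%) and Nfil3 at 0.280 (14.3%) varied less. Bmal1, at 0.912 (0.338%), varied nearly as much as Per3.

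This spread within groups ran along a common axis. With group means and array medians removed, the correlation with Bmal1 over the 24 arrays was -0.93 for Per3 (rho = -0.90), -0.90 for Tef (rho = -0.89), -0.88 for Per2 (rho = -0.82), -0.87 for Dbp (rho = -0.91) and -0.78 for Hlf (rho = -0.84). Permutation of arrays within groups (two-sided) gave p = 1e-05 for Per3, Tef and Dbp, the smallest 100000 permutations can give, 3e-05 for Per2 and 7e-05 for Hlf. Per1 (r = -0.61, rho = -0.53, permutation p = 0.00396) followed less closely, and Nfil3 ran with Bmal1 (r = 0.58, rho = 0.51, permutation p = 0.00492). Adjusted over the 8 correlations computed, these 7 permutation p-values were at most 0.00562. Within groups, rats low in Bmal1 were thus high in Per2, Per3, Dbp, Tef and Hlf.

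Leaving out the 2 arrays farthest from the Bmal1 median, 41 of GpatHF-CD and 44 of GpatHF-HF, gave -0.94 for Per3, -0.88 for Tef and Dbp, -0.84 for Per2, -0.70 for Hlf, -0.56 for Per1 and 0.59 for Nfil3. Without arrays 21, 22, 24 and 25 the values were -0.94, -0.90, -0.88, -0.88, -0.81, -0.59 and 0.67 for Per3, Tef, Per2, Dbp, Hlf, Per1 and Nfil3. In each of the 4 groups on its own, r was -0.93 to -0.97 for Per3, -0.88 to -0.94 for Dbp, -0.75 to -0.97 for Per2 and -0.59 to -0.88 for Hlf. Per1 was uneven, at -0.17 in GpatCD-CD, -0.48 in GpatCD-HF, -0.75 in GpatHF-CD and -0.99 in GpatHF-HF. Nfil3 was at 0.79 in both chow-fed groups and at 0.40 and 0.34 in GpatCD-HF and GpatHF-HF. Ranked by the size of r among 15686 probe sets, Per3 came 1st, Tef 7th, Per2 13th, Dbp 16th and Hlf 49th. Per1 came 261st, Nfil3 335th and Cry1 6461st, and 0.752% of probe sets exceeded 0.7 in size. Principal component 2, on which 4 arrays stood apart, had a correlation of 0.0977 in size with Bmal1 within groups.

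**Figure D3:**
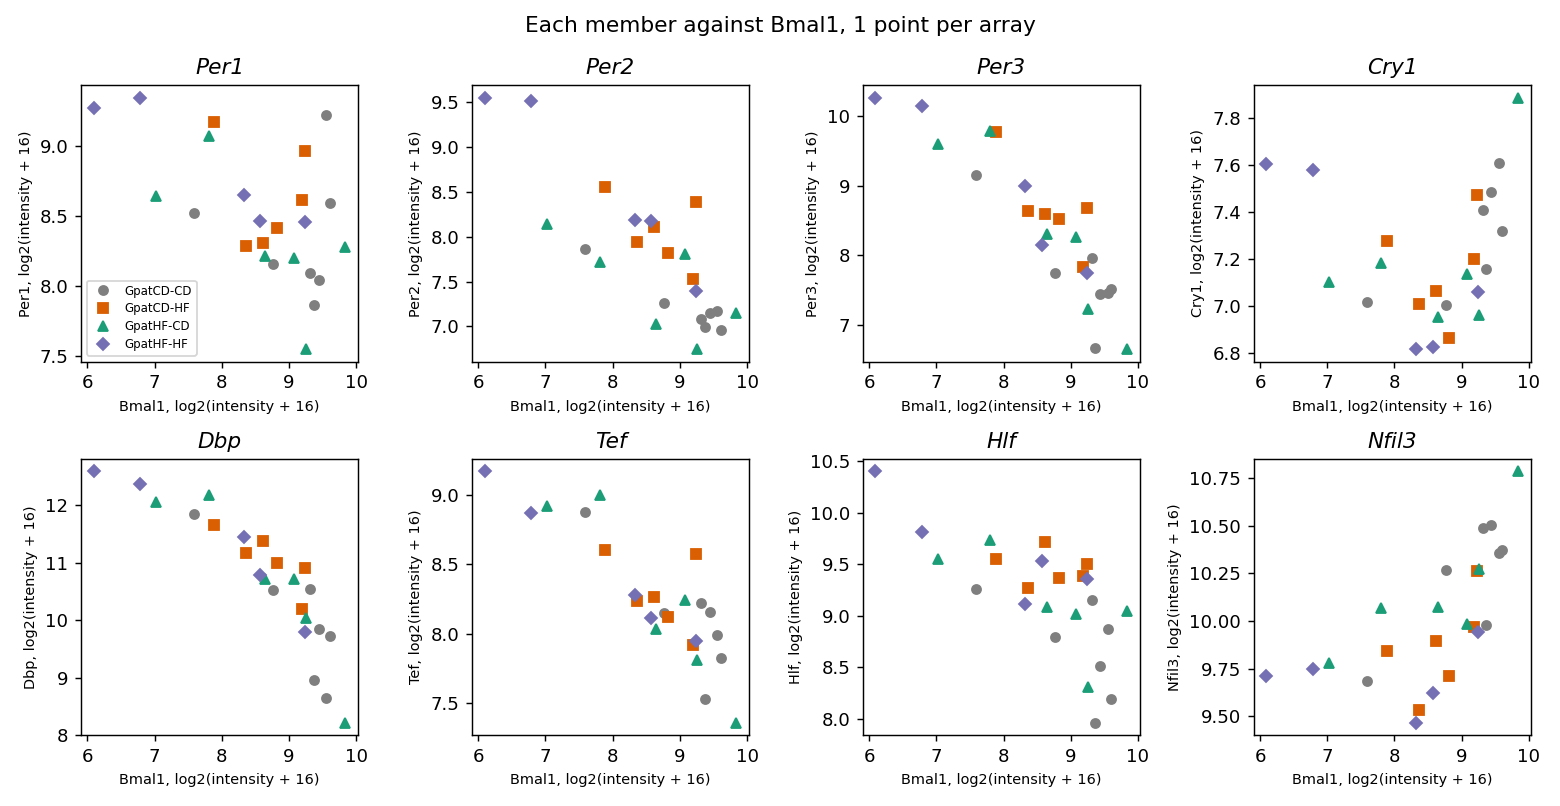
Log2 signal of each of the 8 genes (vertical) against that of Bmal1 on the same array (horizontal), both log2(intensity + 16), 1 point per array with colour and shape by group. Per3, Tef, Per2 and Dbp fall as Bmal1 increases in every group. Cry1 is high on the array with the highest Bmal1 and on arrays 44 and 47 of GpatHF-HF, which have the lowest.

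Cry1 had no such linear relation (r = -0.20, rho = -0.23, permutation p = 0.477). Its highest signal, 7.89, was on array 37, which also had the highest Bmal1 at 9.84. The arrays with the lowest Bmal1, 6.09 and 6.79, both of GpatHF-HF, had Cry1 at 7.60 and 7.58. Both lay above the median of 7.15 over all arrays. The next lowest in Bmal1, array 41 at 7.02 and array 30 at 7.58, had Cry1 at 7.10 and 7.01, below that median. Within groups r was 0.53, -0.17, 0.37 and -0.92 for GpatCD-CD, GpatCD-HF, GpatHF-CD and GpatHF-HF. The overall r was 0.01 without array 44.

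Among themselves the genes were tied to different degrees. Within groups r was 0.96 between Per3 and Tef, 0.94 between Per3 and Dbp, 0.93 between Dbp and Tef, and 0.84 between Per2 and Per3. Hlf was at 0.76 with Per3, 0.78 with Tef, 0.69 with Per2 and 0.68 with Dbp. Nfil3 ran against Dbp at -0.73 and against Hlf at -0.41. Per1 correlated at 0.68 with Per3 and 0.41 with Dbp. Among the other core genes, Npas2 (0.91) and Clock (0.85) ran with Bmal1, while Cry2 (-0.79) and Bhlhe41, a repressor that also binds E-boxes (-0.86), ran against it. These values are a description over 24 arrays that share a processing.

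**Figure D4:**
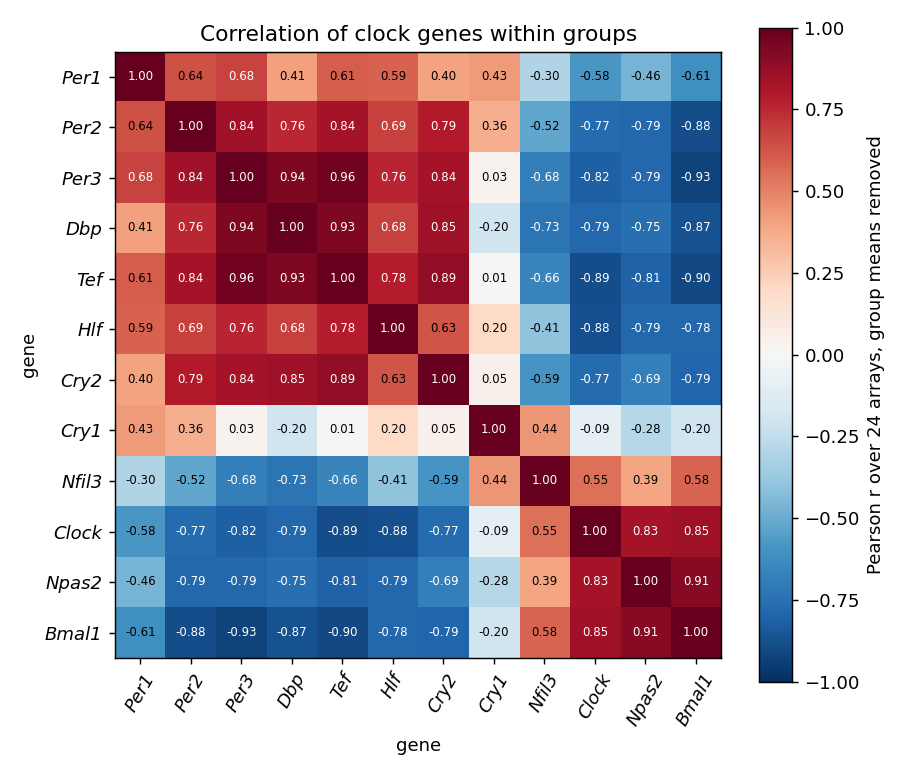
Pearson r between 12 clock genes over 24 arrays after removing array medians and group means; rows and columns are genes and the colour scale runs from -1 to 1. Per1, Per2, Per3, Dbp, Tef, Hlf and Cry2 form a block of positive values, Clock, Npas2 and Bmal1 form the opposing block, and Cry1 lies between -0.28 and 0.44 with the other genes.

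Because of these correlations, the log2 signal of Bmal1 was added to the fit as a linear covariate, a choice made after seeing the data. Bmal1 is itself a clock gene that diet could move, so these values hold Bmal1 equal rather than the time of day, which the labels do not give. For own diet in the average, Per2 was 0.68 ± 0.13 higher at equal Bmal1 and passed (limma adjusted p = 0.00397). Hlf was 0.46 ± 0.13 (adjusted p = 0.0909) and Nfil3 -0.31 ± 0.10 (adjusted p = 0.148), and neither passed, so 1 of the 8 genes was called, against 1.17% of all probe sets in the same fit. Per3 went from 0.86 to 0.28 ± 0.16, Dbp from 0.89 to 0.25 ± 0.21, Per1 from 0.39 to 0.24 ± 0.16 and Tef from 0.21 to -0.06 ± 0.10. Cry1 was -0.09 ± 0.12.

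By line, the Per2 difference at equal Bmal1 was 0.64 ± 0.16 in the chow line (limma adjusted p = 0.116) and 0.72 ± 0.18 in the HFD line (adjusted p = 0.0914). None of the 8 genes passed in either line, against 0.344% of all probe sets in the chow line and 0.427% in the HFD line. Per3 was 0.58 ± 0.21 in the chow line and -0.02 ± 0.24 in the HFD line, and Dbp 0.60 ± 0.27 and -0.11 ± 0.30. Hlf was 0.66 ± 0.17 and 0.26 ± 0.19. Per2 therefore had a like value in both lines, while those of Per3, Dbp and Hlf were higher in the chow line. Whether the lines differ at equal Bmal1 was not tested for any of these genes.

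For grandpaternal diet in the average, the differences at equal Bmal1 lay between -0.23 and 0.09. Per2 went from 0.36 to 0.01 ± 0.13, Hlf from 0.31 to 0.09 ± 0.13 and Nfil3 from -0.12 to -0.00 ± 0.10. Per3 went from 0.49 to -0.16 ± 0.17, Dbp from 0.49 to -0.23 ± 0.21, Tef from 0.15 to -0.15 ± 0.10 and Per1 from 0.09 to -0.08 ± 0.16. None passed, with or without the covariate, and neither did any other probe set (0%). The part that collection time had in any of these differences was not tested.

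**Figure D5:**
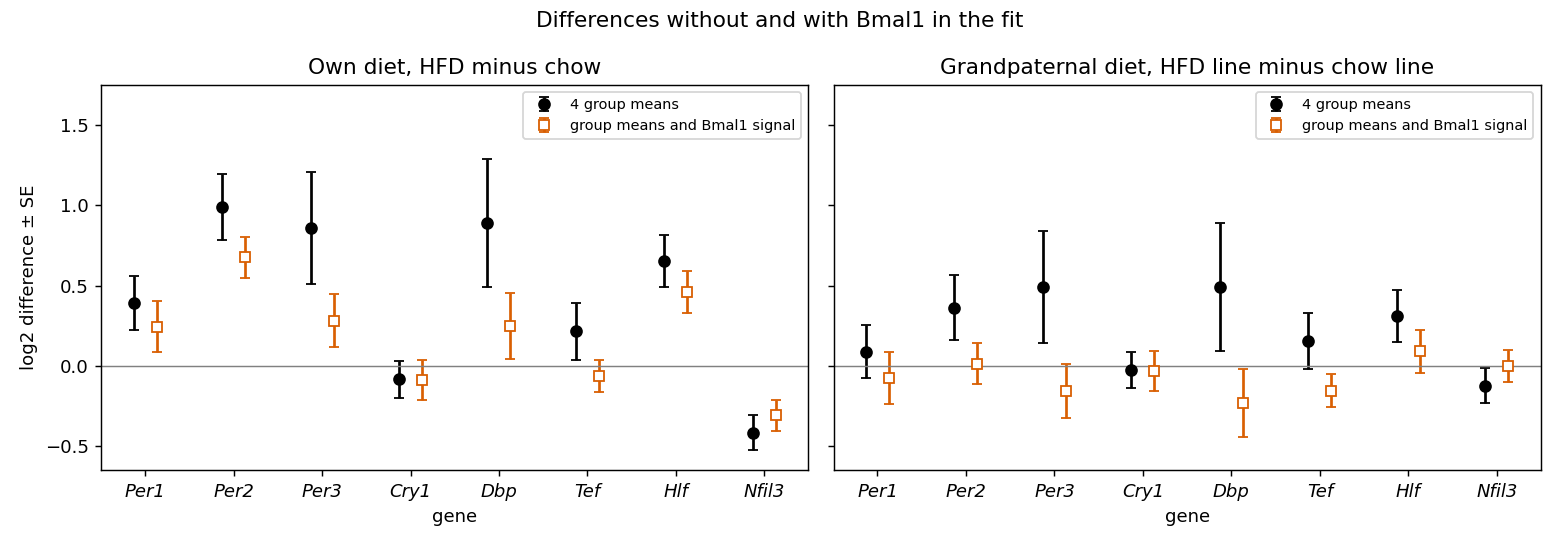
Log2 difference ± SE of the 8 genes for own diet (left, HFD minus chow, average of the lines) and grandpaternal diet (right, HFD line minus chow line, average of the own diets), from the fit with 4 group means (filled circles) and with Bmal1 added (open squares). On the left Per2 moves from 0.99 to 0.68, Per3 from 0.86 to 0.28 and Dbp from 0.89 to 0.25, and on the right Per2 moves from 0.36 to 0.01.

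The wider pathway was read from lists named for it. Of 18 other core clock genes, 12 had a probe set of their own and were tested, and none passed for own diet in the average (median -0.04). At an unadjusted p under 0.05 there was 1, Btrc, which marks PER proteins for degradation, at 0.16 ± 0.06 (limma adjusted p = 0.214). Of 14 tested clock-controlled liver genes none passed and 6 were under 0.05 unadjusted, against 13.3% of all probe sets (median 0.13). Lpin1, a phosphatidate phosphatase, was at -0.36 ± 0.12 (adjusted p = 0.158), Nampt, of NAD synthesis, at -0.29 ± 0.11 (adjusted p = 0.201) and Ppara at 0.24 ± 0.11 (adjusted p = 0.343). Within groups, Usp2 (-0.85), Por (-0.78), Upp2 (-0.78) and Wee1 (-0.71) ran against Bmal1, whereas Pdk4 (0.64) and Avpr1a (0.57) ran with it, and Lpin1 (0.00) and Nampt (-0.35) were nearer to 0.

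Other inputs that reach the liver clock were read in the same way for own diet in the average, where 1.99% of all probe sets passed and 13.3% were under 0.05 unadjusted. Of 10 glucocorticoid-responsive genes none passed and 4 were under 0.05 unadjusted (median -0.09), with Cdkn1a at -0.94 ± 0.28 (limma adjusted p = 0.0858), Dusp1 at -0.21 ± 0.08 and Zbtb16 at -0.60 ± 0.23. Within groups Cdkn1a ran with Bmal1 (r = 0.75), and Klf9 ran against it on both of its probe sets (-0.80 and -0.44). Of 7 feeding and fasting genes 1 fell, Pck1, of gluconeogenesis, at -0.49 ± 0.13 (adjusted p = 0.0393), and that call was lost in 17 of 32 alternative fits, with adjusted p up to 0.0913. Irs2, of insulin signalling, was at -0.30 ± 0.13 and Angptl4, a lipase inhibitor, at -0.38 ± 0.16. Of these 7 genes 5 were below 0 and 2 above (median -0.26). Of 7 genes of temperature and heat shock none passed and 2 were under 0.05 unadjusted. In this list too 5 were below 0 and 2 above (median -0.13). Dnajb1 was at -0.31 ± 0.10 (limma adjusted p = 0.109), Hspb1 at -0.58 ± 0.19 and Hsph1 at -0.28 ± 0.14. Pck1 (r = -0.12), Irs2 (-0.02) and Angptl4 (0.14) had little relation to Bmal1 within groups.

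Some markers of other cells moved with own diet. For own diet in the average 1.63% of all probe sets fell, 13.3% were under 0.05 unadjusted and 10032 of 15687 were below 0. Of 8 Kupffer cell and macrophage genes 8 were lower in the average (median -0.44), and all 8 were under 0.05 unadjusted (limma). Of these genes 3 fell: Marco by 1.16, Cd5l by 0.70 and Vsig4 by 0.55 on the log2 scale. The summed intensity of the 8 genes was 5050 to 8619 in GpatCD-CD, 2953 to 5192 in GpatCD-HF, 4087 to 7392 in GpatHF-CD and 3732 to 5930 in GpatHF-HF, and none was listed at 0. Within groups Marco correlated at -0.61 with Bmal1, and the other 7 at -0.21 to -0.48. Of 4 bile duct genes 1 fell (Epcam, -0.55) and of 3 tested pancreatic acinar genes 1 fell (Cpa1, -1.43). Their summed intensities were 336 to 633 and 256 to 8220 over all arrays. These lists did not move as a whole: 2 of the 4 bile duct genes were above 0 (median 0.00), and 1 of the 3 acinar genes was (median -0.07). Of 6 hepatocyte genes none passed and 1 was under 0.05 unadjusted. By line, 6 of 6 were above 0 in the chow line (median 0.15) and 6 of 6 below 0 in the HFD line (median -0.06). Of all 15687 probe sets, 8532 were above 0 in the chow line and 11228 below 0 in the HFD line. Unadjusted, 4 of the 6 were under 0.05 in the chow line and 4 for the interaction, against 8.80% and 9.71% of all probe sets (limma). For own diet in the average, no tested gene of the endothelial, stellate, adipocyte and erythroid lists passed or was under 0.05 unadjusted. Of 4 lymphocyte genes none passed and 2 were under 0.05 unadjusted (limma). The calls of Marco, Cd5l and Epcam held in the alternative fits run, whereas that of Vsig4 was lost in 17 of 32 and that of Cpa1 in 3 of 32. In whole liver, fewer cells of a type and less RNA per cell cannot be told apart, and the part of these cells in the clock gene differences was not tested.

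The genes most like Per2 and Dbp were found by Pearson r over the 24 arrays, of log2 signal with array medians removed and group means kept. Outside the chosen and core clock genes, Per2 was most like Cfap126 (0.82), Fam20c (0.82), Jade1 (0.82), Gucy1b2 (0.80) and Pus7 (0.80). Among those it was most like Per3 (0.85), Hlf (0.83), Dbp (0.78), Tef (0.78) and Per1 (0.75). Dbp was most like Hsd17b2 (0.96), a steroid dehydrogenase, Jade1 (0.91), Upp2 (0.87), Fam20c (0.86) and Ankrd12 (0.84), and among clock genes Per3 (0.95), Tef (0.93), Cry2 (0.84), Bhlhe41 (0.80) and Per2 (0.78). Upp2 is also on the list of clock-controlled genes. Dbp thus had a gene on none of the clock lists, Hsd17b2, at a value as high as its closest clock gene. Jade1 and Fam20c were among the closest for both Per2 and Dbp.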

How the data were processed

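Liver RNA of 24 rats was hybridised to Affymetrix whole-transcript arrays, starting from 200 ng per sample per the labels' protocols. The deposited values are linear intensities, which the authors summarised by PLIER in Affymetrix Expression Console, per the submitters' processing notes. Its version, any background correction and a genome build are not given in those sources. From it, log2(intensity + 16) was computed without further normalization. The 25% of 20917 probe sets with the lowest mean (log2 under 5.72) were left out. limma 3.58.1 in R 4.3.3 fitted 4 group means (lmFit, eBayes with trend), two-sided, with Benjamini-Hochberg adjustment over 15687 probe sets at 0.05. It was tested on simulated data with noise drawn independently for each probe set, so without the correlation between clock genes described above.

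Symbols were those of the platform annotation, brought up to date with RefSeq. Bmal1 is the current name of Arntl, and Hlf was matched by symbol. Correlations with Bmal1 used array-median-centred log2 signals with group means removed and 100000 permutations within groups. Named were all members, Bmal1, Clock, Npas2, Cry2, list genes that passed in a contrast or had the 3 smallest p of a described list, and 5 alike genes per kind for Per2 and Dbp. Further list genes are named for their correlation, chosen after their values were seen. The members, lists and contrasts were chosen with earlier results of these data known. The alternatives were quantile normalization, median centring, other filters and offsets, arrays 21, 22, 24 and 25 left out or as a block, each array left out in turn, Spearman and uncentred correlations, and Bmal1 as a covariate, the last added after seeing the data. No value in the files gives a depth, and for arrays the number of samples limits precision.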

Additional observations from a re-analysis of the deposited data

Results flagged for a closer look

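Single arrays stood away from the rest of their group in 4 of the 48 sets examined (12 clock genes in 4 groups), where chance gives about 1 in 20. The rule compared the gap to the nearest array with the range of the group. In GpatCD-CD, array 30 had the highest Per2 at 7.862, next to 7.26 on the nearest array, the lowest Bmal1 at 7.585, next to 8.76, and the lowest Clock at 9.245, next to 9.85, all in log2 signal. Array 30 also had the highest Dbp (11.85) and Per3 (9.16) of its group. In GpatHF-CD, array 37 had the highest Cry1 at 7.886, next to 7.18, and its Bmal1 of 9.84 was the highest of all 24 arrays. The cause was not tested. Without array 30 the own-diet difference of Per2 in the average was 1.04, against 0.99 with it.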

How the results depend on the processing

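The Per2 rise for own diet in the average passed in 32 of the 32 alternatives without the Bmal1 covariate (log2 0.86 to 1.13, adjusted p 0.000856 to 0.0370), the Hlf rise in 27 of 32 and the Nfil3 fall in 13 of 32; without a filter on dim probe sets Nfil3 had an adjusted p of 0.0502. With Bmal1 as a covariate Per2 passed at 0.68 while Hlf (adjusted p = 0.0909) and Nfil3 (0.148) did not, so the count was 1 rather than 3. Leaving out 1 array gave counts of 1 to 3 for own diet in the average, 0 to 1 in the HFD line and 0 to 0 in the other contrasts. The cause of these changes was not tested.

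Values that changed sign, all log2 differences that did not pass, were these. For Cry1 they were 0.042 (quantile), 0.094 (centred) and 0.062 (without arrays 21, 22, 24 and 25) for own diet in the HFD line, and 0.027, 0.040 and 0.023 for grandpaternal diet in the average. The Nfil3 interaction was 0.063 (quantile) and 0.034 (centred). Without those 4 arrays Tef was -0.057 for own diet in the chow line and -0.052 for grandpaternal diet on chow, and the interactions were 0.26 (Per3), 0.088 (Dbp) and 0.12 (Hlf). With Bmal1 as a covariate, own diet gave -0.0055 (Tef, chow line), -0.019 (Per3), -0.11 (Dbp) and -0.12 (Tef) in the HFD line and -0.061 (Tef) in the average, and grandpaternal diet -0.076 (Per1), -0.16 (Per3), -0.23 (Dbp) and -0.15 (Tef).

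Leaving out 1 array moved Cry1 between -0.094 and 0.019 (grandpaternal average), -0.078 and 0.12 (grandpaternal, HFD) and -0.13 and 0.11 (own diet, HFD line). It moved grandpaternal values on chow between -0.18 and 0.12 (Per1), -0.035 and 0.29 (Tef) and -0.20 and 0.00034 (Nfil3), and Hlf on the HFD between -0.014 and 0.31. Interactions ran from -0.55 to 0.11 (Per3), -0.78 to 0.11 (Dbp), -0.10 to 0.22 (Tef) and -0.17 to 0.030 (Nfil3), and the Npas2 own-diet average from -0.23 to 0.052. Correlations with Bmal1 ran from -0.48 to 0.010 for Cry1, -0.94 to -0.92 for Per3, -0.92 to -0.89 for Tef, -0.92 to -0.86 for Per2, -0.89 to -0.85 for Dbp, -0.81 to -0.73 for Hlf, -0.73 to -0.58 for Per1 and 0.50 to 0.67 for Nfil3. No paired analysis was possible because no array number occurs in more than 1 group.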
